A study of Homo sapiens with 8 samples.

Results

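Transcript levels of 9 genes of the Eph receptor and ephrin family (EPHA2, EPHA4, EPHB2, EPHB3, EPHB4, EFNA1, EFNA5, EFNB1 and EFNB2) were examined in 143B, an established human osteosarcoma cell line. They were taken by symbol from a deposited table of 54174 gene symbols. The cells had been transiently transfected for 48 h with a plasmid for knockout of NELL1, a gene for a secreted matrix protein, or with a vector plasmid, which all control cells received. There were 4 libraries of each kind, labelled as biological replicates. The labels name no clone or selection step for the knockout cells and do not say how the plasmid acts on the gene. The 9 genes were chosen as a set with earlier results of these data known, and the other 13 human receptors and ephrins are given beside them.

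Eph receptors are receptor tyrosine kinases, and ephrins are their ligands, which stay attached to the membrane of the neighbouring cell. Class A ephrins are held by a lipid anchor and class B ephrins span the membrane. Binding between touching cells sends a forward signal through the receptor and a reverse signal into the ephrin-bearing cell, and the family is known for guiding repulsion, adhesion and boundary formation. In bone, ephrin-B2 on osteoclasts and EphB4 on osteoblasts are known for coupling these cell types.

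Among the 9 genes, the class B ligand EFNB1 and the receptor EPHB2, which binds class B ephrins, were lower in the knockout libraries, by 1.72-fold and 1.59-fold. EFNB1 passed the threshold in 20 of 20 alternative analyses and EPHB2 in 14. These alternatives reuse the same 8 libraries and are not independent of one another. With each close knockout pair averaged into 1 library, 1.20% of all tested genes were called. There EFNB1 kept its call (limma adjusted p = 0.0270) and EPHB2 lost it (limma adjusted p = 0.0847). EPHA2 was 1.19-fold lower on average and missed the threshold. EPHA4 was 2.42-fold lower in knockout libraries 1 and 2 and 1.46-fold higher in knockout libraries 3 and 4 when compared with the controls of the same numbers. EPHB3, a receptor listed at low values, was on average 2.08-fold higher in the knockout libraries without passing its test. EPHB4 and EFNB2 differed by less than 1.1-fold on average, and neither they nor EFNA1 and EFNA5 passed a test over the 8 libraries.

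EFNB1 lies on chrX:68829021-68842160 and EPHB2 on chr1:22710838-22921500 in RefSeq's annotation of GRCh38.p14, the build of all coordinates given here. Both genes lie on the forward strand. A promoter entry was found for all 9 genes. The 250 bases before the first transcript start listed for EFNB1 (chrX:68828771-68829020) and EPHB2 (chr1:22710588-22710837; a second listed start lies on the next base) are shown because these are the genes that passed the test. Capitals mark the letters GGGCGG, the core of the GC box, and CCAAT, on either strand.

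EFNB1: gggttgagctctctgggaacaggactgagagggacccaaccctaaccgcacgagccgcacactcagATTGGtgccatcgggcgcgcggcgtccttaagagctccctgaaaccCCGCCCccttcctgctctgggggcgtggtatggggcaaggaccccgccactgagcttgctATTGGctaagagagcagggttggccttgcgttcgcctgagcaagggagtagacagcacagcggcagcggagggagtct

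EPHB2: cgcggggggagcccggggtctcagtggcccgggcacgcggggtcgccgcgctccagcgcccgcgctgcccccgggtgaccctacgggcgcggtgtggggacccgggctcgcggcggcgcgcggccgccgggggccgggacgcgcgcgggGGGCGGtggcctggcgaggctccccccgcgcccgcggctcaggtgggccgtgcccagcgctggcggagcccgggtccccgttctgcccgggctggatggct

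The EFNB1 window held CCAAT on the reverse strand in 2 places, whose matches begin 184 and 78 bases before the start, and GGGCGG on the reverse strand in 1 place, 138 bases before it. The EPHB2 window held GGGCGG on the forward strand in 1 place, 101 bases before the start, and no CCAAT. Of the 35116 promoter windows of this length, 42.6% held GGGCGG and 32.0% held CCAAT on some strand. The EPHB2 window was 84.8% G or C and the EFNB1 window 63.6%, against a median of 58% over all windows. The letters TGGGAA, the core bound by RBPJ, were present in 1 place in the EFNB1 window and were not in that of EPHB2 (20.8% of all windows held them). A loose NF-kB pattern had 7 matches, partly overlapping one another, in the EPHB2 window and none in that of EFNB1 (54.4% of all windows held it). The TATA box (TATAAA), held by 10.7% of all windows, the E-box (CACGTG), held by 6.34%, and the AP-1 element (TGANTCA), held by 6.57%, were in neither. These are matches of letters and carry no information on binding in these cells.

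The values are log2 numbers that had been quantile normalized, so each gene is read relative to the rest of its library. The unit before the logarithm is not given in the sources used here, so levels of different genes are not ranked against each other. Read totals are unknown, no counting error can be attached, and fewer expressing cells cannot be told apart from less RNA per cell. The targeted gene did not separate the groups: NELL1 was -6.97, -6.97, -4.53 and -5.00 in controls 1 to 4 and -4.82, -5.87 and -6.96 in knockout libraries 1, 2 and 4, with a blank in library 3. At such low values the gene gives no check of the labels. The knockout libraries formed close pairs, with an SD of the difference across 9016 genes of 0.12 between libraries 1 and 2 and 0.13 between 3 and 4, against 0.46 to 0.50 between the pairs. Between a control and a knockout library it was 0.36 to 0.45, and between controls 0.10 to 0.29. The knockout pairs thus lay farther from each other than any knockout library lay from any control. Results are therefore also given for the set of replicates 1 and 2 and for that of 3 and 4.

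The identity of the cells was checked on marker lists. VIM, of mesenchymal cells, had a mean of 10.6 and SPARC, a bone matrix gene, of 5.80, but the osteoblast transcription factor SP7 was blank in all 8 libraries and the collagen gene COL1A2 in 4 of 8. Of 8 endothelial markers, 7 had means below 0, among them PECAM1 (-4.01) and CDH5 (-5.41), and TIE1 had a mean of 4.89. Of 8 epithelial markers CDH1 was blank in 6 libraries and GRHL2 in 8, while EPCAM, KRT8 and KRT18 met the filter, and of 8 blood cell markers PTPRC and CD3E were blank throughout and CD68 alone met it. Some of these genes moved with the groups: limma called VIM (-0.43) and TIE1 (-0.45) lower and SPARC (0.62) and KRT8 (0.38) higher. The summed level of the endothelial list was 5.04 to 5.22 in controls and 4.66 to 4.77 in knockout libraries on the log2 scale, and that of the epithelial list 9.06 to 9.18 and 9.26 to 9.46. The summed mesenchymal list was 10.8 to 10.9 and 10.3 to 10.8, and the blood cell list 5.73 to 5.91 and 5.55 to 5.88. Each sum lay mostly in its highest gene: TIE1, KRT18, VIM and CD68, in the order of the lists given. TIE1 alone was 4.98 to 5.19 in controls and 4.57 to 4.70 in knockout libraries. The sums therefore say little about the other genes of each list. The part of these markers in the results that follow was not tested.

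**Figure D1:**
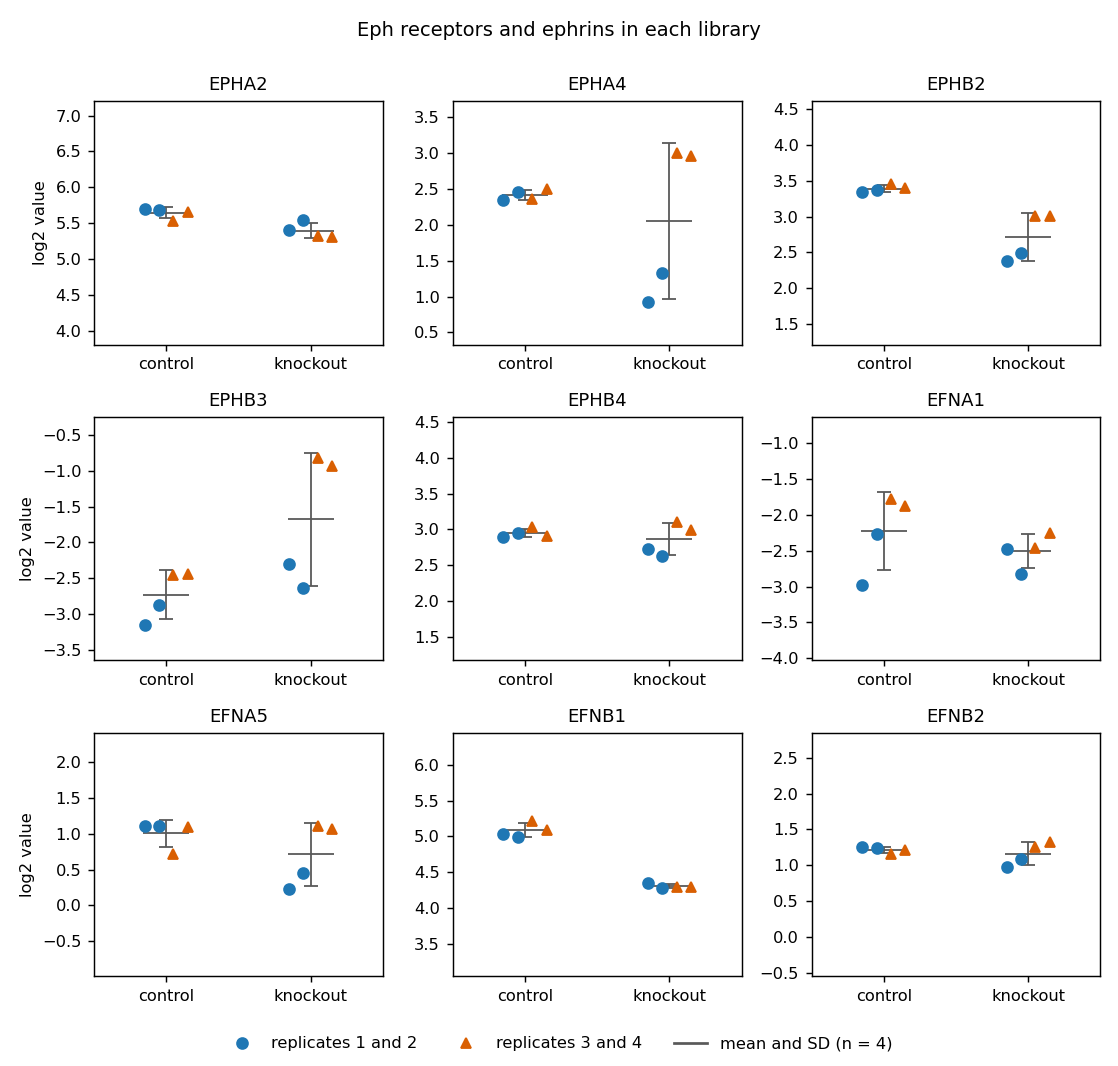
Log2 value (vertical axis, the same span of 3.4 units in every panel) of the 9 genes in each of the 4 control and 4 knockout libraries. Circles are replicates 1 and 2, triangles replicates 3 and 4, and bars the mean and SD over 4 libraries. EFNB1 and EPHB2 have no overlap between the groups, and the knockout libraries of EPHA4 lie on both sides of the controls.

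Of the 9 genes, 6 had a mean log2 value of at least 1 and were tested with limma over the 9016 genes that met this filter. The test called 2 of these 6 at a Benjamini-Hochberg adjusted p-value under 0.05, both lower in the knockout libraries. Over all tested genes 13.1% were called, 7.02% higher and 6.10% lower. All 6 differences over 4 replicates were below 0, as were 4392 of the 9016 tested genes. Their median was -0.31 beside a median of 0.0072 over all tested genes. In replicates 3 and 4 alone, EPHA4 (0.55), EPHB4 (0.08) and EFNB2 (0.11) lay above 0. The median of the 6 was then -0.10, beside -0.0021 over all tested genes. The values did not overlap between the groups for 2 of the 6, EFNB1 and EPHB2, against 22.9% of all tested genes; in 10.4% of all tested genes every knockout library was the lower. With 6 genes such shares are a description and no more.

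The class B ligands were taken first. EFNB1 encodes ephrin-B1, a transmembrane ligand known for boundary formation in the developing skull and face. Controls 1 to 4 had log2 values of 5.04, 4.99, 5.22 and 5.09, and it was 4.34, 4.28, 4.29 and 4.30 in knockout libraries 1 to 4. Every knockout library lay below every control, and the 4 knockout values were closer to each other than the controls were. The mean was 5.08 ± 0.10 in the controls and 4.30 ± 0.03 in the knockout libraries (SD, n = 4 each). The difference was -0.78 ± 0.07 (SE; limma adjusted p = 0.00111), which ranked EFNB1 at place 9 of the 9016 genes by p-value. The knockout libraries held 58.2% of the control level on the linear scale.

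EFNB1 was the member whose knockout pairs lay closest. Its knockout minus control difference was -0.70 for replicates 1 and 2 and -0.86 for 3 and 4. The mean of knockout libraries 3 and 4 differed from that of libraries 1 and 2 by -0.02, and 3.23% of tested genes had a difference between these pairs of that size or smaller. With each knockout pair averaged into 1 library, EFNB1 kept its call (limma adjusted p = 0.0270), in a fit that called 1.20% of tested genes. It also kept its call when any single library was left out, with limma adjusted p-values from 0.00173 to 0.00816.

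EFNB2 (chr13:106489745-106535662) encodes ephrin-B2, the ligand of EPHB4 and a marker of arteries. Its value was 1.26, 1.24, 1.16 and 1.21 in controls 1 to 4 and 0.97, 1.09, 1.26 and 1.33 in knockout libraries 1 to 4. Knockout libraries 1 and 2 lay below all controls, library 4 lay above all controls and library 3 within their range. The difference over 4 replicates was -0.05 ± 0.09 (SE; limma adjusted p = 0.714), with a 95% interval from -0.25 to 0.14. EFNB2 exons overlap those of an annotated antisense gene in GENCODE 29, and whether the counting used strand is not given in the sources used here, although the library kit was stranded. EFNB3, the third class B ligand and the one family gene outside the 9 that met the filter, was 1.33, 1.15, 1.04 and 1.08 in the controls and 1.04, 0.89, 0.88 and 1.05 in the knockout libraries. The groups overlapped slightly, and the difference was -0.19 ± 0.08 (SE; limma adjusted p = 0.178).

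Of the receptors for class B ephrins, EPHB2 is known for cell sorting in the intestinal crypt and for synapse formation. Its value was 3.34, 3.37, 3.45 and 3.40 in controls 1 to 4, a spread of 0.05 (SD, n = 4). In knockout libraries 1 to 4 it was 2.38, 2.49, 3.01 and 3.01, with an SD of 0.34. All 4 knockout values lay below the lowest control, and libraries 1 and 2 lay below libraries 3 and 4. The difference was -0.67 ± 0.15 (SE; limma adjusted p = 0.0252), at place 647 of 9016 by p-value. Within replicates 1 and 2 it was -0.92 and within replicates 3 and 4 it was -0.41, so the size of the fall but not its direction differed between the sets. The call was lost with knockout pairs averaged into single libraries (limma adjusted p = 0.0847). It was also lost without control library 1, 2 or 4 (limma adjusted p = 0.0676, 0.0736 and 0.0772) or without knockout library 2 (limma adjusted p = 0.0528), while the difference stayed between -0.76 and -0.55 whichever library was left out. An annotated miRNA gene overlaps EPHB2 exons on the opposite strand.

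EPHB4 (chr7:100802565-100827523) encodes the main receptor of ephrin-B2 and is known for venous identity. Its value was 2.90, 2.96, 3.03 and 2.91 in the controls and 2.72, 2.63, 3.11 and 2.99 in the knockout libraries. Knockout libraries 1 and 2 lay below all controls, library 3 lay above all controls and library 4 lay within their range. The difference was -0.08 ± 0.11 (SE; limma adjusted p = 0.646), with a 95% interval from -0.33 to 0.16, and it lay between -0.17 (without knockout library 3) and -0.0081 (without knockout library 2) when 1 library was left out. EPHB4 exons overlap those of SLC12A9 on the opposite strand, so that reads of these genes could be mixed if strand was not used.

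EPHB3 (chr3:184561785-184582408), a receptor related to EPHB2 and known as a target of Wnt signalling in the intestine, did not meet the filter. It was -3.15, -2.88, -2.46 and -2.44 in the controls and -2.30, -2.64, -0.83 and -0.93 in the knockout libraries. Knockout libraries 3 and 4 stood more than 1 unit above all controls, library 1 lay just above them and library 2 lay within their range. The difference of means was 1.06 (p = 0.114 by exact permutation, two-sided, where 0.0286 is the smallest p that 4 against 4 libraries allow), with 0.54 for replicates 1 and 2 and 1.57 for 3 and 4. In 4 of 4 pairs the knockout library exceeded the same-numbered control, which gives the smallest p a sign flip over 4 pairs can reach (exact permutation, p = 0.125). With a pseudocount of 1 on the linear scale the difference was 0.23. In the limma fit without a filter the adjusted p-value was 0.172.

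**Figure D2:**
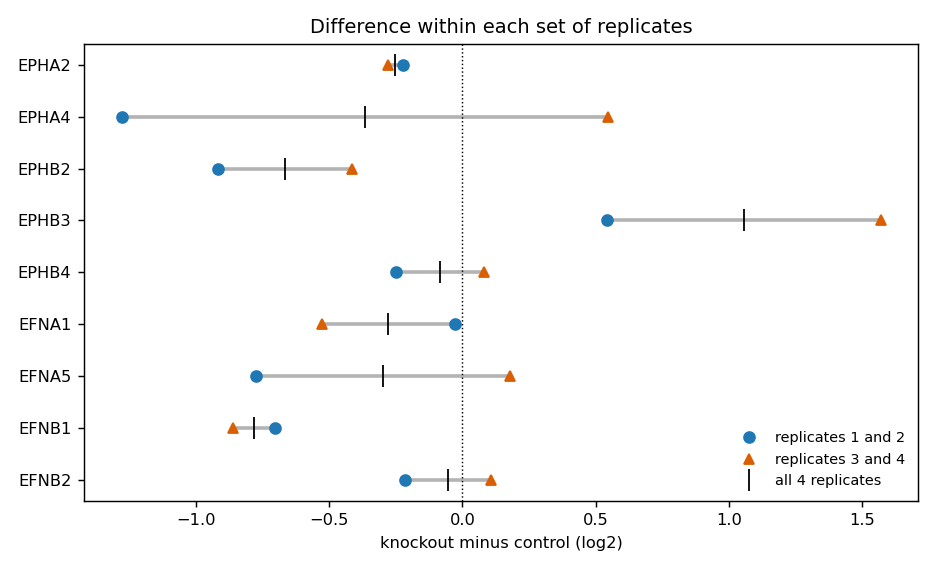
Knockout minus control (log2, horizontal axis) for the 9 genes, within replicates 1 and 2 (circles), within replicates 3 and 4 (triangles) and over all 4 replicates (vertical ticks). EFNB1, EPHA2, EPHB2 and EFNA1 lie below 0 and EPHB3 above 0 in both sets, and the markers of EPHA4 lie on opposite sides at -1.28 and 0.55.

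Of the class A receptors, EPHA2 (chr1:16124337-16156069) is abundant in many carcinomas and sarcomas and is known to signal also without ligand. Its value was 5.70, 5.69, 5.53 and 5.66 in the controls and 5.40, 5.54, 5.32 and 5.31 in the knockout libraries. The groups overlapped at 1 point, where knockout library 2 lay just above control library 3. The difference was -0.25 ± 0.08 (SE; limma adjusted p = 0.0622), with a 95% interval from -0.42 to -0.08, and with -0.22 for replicates 1 and 2 and -0.28 for 3 and 4. EPHA2 therefore missed the threshold with a small difference of 1 direction in both sets. It passed without control library 3 (-0.29, limma adjusted p = 0.0411, with 15.0% of all tested genes called) or without knockout library 2 (-0.30, limma adjusted p = 0.0469, with 9.49% called). It also passed with a filter at a mean of 3 (limma adjusted p = 0.0490, with 15.6% called), with a term for replicates 1 and 2 against 3 and 4 (limma adjusted p = 0.0192, with 25.2% called) and within each of these sets alone (limma adjusted p = 0.0191 and 0.0421, with 59.7% and 33.1% called). It missed the threshold in the other 14 of 20 alternatives, and its adjusted p-value reached 0.207 with knockout pairs averaged.

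EPHA4 (chr2:221418027-221574202) encodes a receptor that binds ephrins of both classes and is known for axon repulsion. In the controls it was 2.35, 2.45, 2.36 and 2.50, a spread of 0.07 (SD, n = 4). In knockout libraries 1 to 4 it was 0.92, 1.33, 3.00 and 2.96. Knockout libraries 1 and 2 lay more than 1 unit below all controls, and knockout libraries 3 and 4 lay above all controls. The mean of the 4 knockout libraries, 2.05 ± 1.08 (SD, n = 4), thus described none of them. The difference over 4 replicates was -0.37 ± 0.45 (SE; limma adjusted p = 0.632), with a 95% interval from -1.40 to 0.67.

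For EPHA4 the difference came to -1.28 within replicates 1 and 2 and to 0.55 within 3 and 4. Knockout libraries 3 and 4 exceeded knockout libraries 1 and 2 by 1.85, while controls 3 and 4 exceeded controls 1 and 2 by 0.03. A difference between the knockout pairs at least as large was found in 43 of the 9016 tested genes, EPHA4 included, and its percentile among them was 99.5. The corresponding percentiles were 82.9 for EPHB2, 65.7 for EPHB4, 49.5 for EFNB2, 31.2 for EPHA2 and 3.23 for EFNB1. Opposite signs in the sets of replicates were seen in 3 of the 6 tested genes, EPHA4, EPHB4 and EFNB2, against 43.0% of all tested genes. Whether the sets differ in the effect of the plasmid was not tested, and the labels name nothing that separates them. EPHA4 exons overlap those of an annotated antisense gene on the opposite strand.

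**Figure D3:**
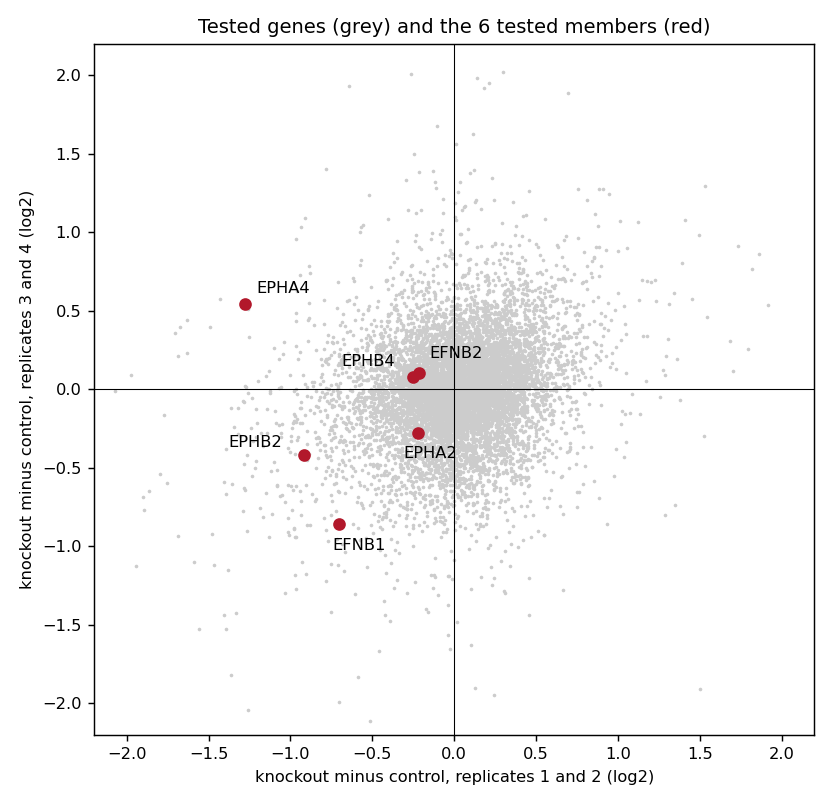
Knockout minus control (log2) in replicates 1 and 2 (horizontal axis) against replicates 3 and 4 (vertical axis) for the tested genes (grey) and the 6 tested members (red); 11 genes lie outside the axes. EPHA4 stands at the upper left edge, EFNB1 and EPHB2 lie in the lower left, and EPHA2, EPHB4 and EFNB2 lie near the centre.

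The class A ligands were listed at low values. EFNA5 (chr5:107376894-107670937), a lipid-anchored ligand known for guiding retinal axons, had a mean of 0.86, just under the filter. It was 1.11, 1.11, 0.72 and 1.09 in the controls and 0.22, 0.45, 1.11 and 1.06 in the knockout libraries. Knockout libraries 1 and 2 lay below all controls, library 3 stood level with the highest control and library 4 within their range. The difference of means was -0.30 (p = 0.257 by exact permutation), with -0.77 in replicates 1 and 2 and 0.18 in replicates 3 and 4. The sides of 0 were those of EPHA4, EPHB4 and EFNB2, and opposite signs in the sets were seen in 43.0% of all tested genes. EFNA1 (chr1:155127876-155134899), a ligand of EPHA2 known to be induced by tumour necrosis factor, was -2.98, -2.27, -1.78 and -1.88 in the controls and -2.48, -2.82, -2.46 and -2.25 in the knockout libraries. All its knockout values fell within the range of the controls, and the difference was -0.28 (p = 0.4 by exact permutation). Leaving out 1 library moved it between -0.53 (without control library 1) and -0.13 (without control library 3), with exact permutation p-values of 0.114 and 0.686; it was -0.16 without control library 4 and -0.17 without knockout library 2.

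Of the 13 other family genes, 9 had a value in all 8 libraries and 1 of these, EFNB3, met the filter. EPHA7 and EPHA10 were blank throughout, EPHA8 had a value in 1 library and EPHA5 in 2. The class A receptors EPHA1, EPHA3 and EPHA6 had means of -5.31, -3.89 and -6.21. EPHB1 and EPHB6, the latter a receptor without kinase activity, had means of -1.54 and -0.62, and the ligands EFNA2, EFNA3 and EFNA4 had means of -1.44, -1.73 and -1.18. None was called by limma with or without the filter, and none had an unadjusted p-value under 0.05 in those fits (0 of 1 and 0 of 9 genes). Without the filter 8.30% of all genes were called.

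The genes whose pattern over the 8 libraries was most like that of each called member were sought among the tested genes by the root mean square difference of values centred on each gene's mean. For EFNB1 these were S100A16 (0.04 log2 units), TAPBP (0.05) and CTHRC1 (0.06). For EPHB2 these were STK32B (0.04), GRB10 (0.05) and PHLDB1 (0.05). Their differences ran from -0.58 for GRB10 to -0.87 for CTHRC1, a direction that the choice by likeness to members called lower had set. GRB10, an adaptor protein that binds activated receptor tyrosine kinases, was also in the list of signalling partners.

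Genes known to act with Eph receptors and ephrins were then counted by role, from a list of 79 genes. Of these, 60 met the filter and 9 were called by limma, 4 higher and 5 lower in the knockout libraries. That is 15% of the tested partners, beside 13.1% of all tested genes, with a median difference of -0.10. The share of partners called was thus close to the background. Without the filter 7 of 78 partners were called, beside 8.30% of all genes, and 5 of these 7 were among the 9.

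Among adaptors and kinases downstream of the receptors, 4 of 17 tested genes were called, 2 in each direction, beside 13.1% of all tested genes. PTK2, which encodes focal adhesion kinase, was 4.92, 4.94, 4.81 and 4.91 in the controls and 4.28, 4.34, 4.30 and 4.31 in the knockout libraries. The groups did not overlap, and the difference was -0.59 ± 0.06 (SE; limma adjusted p = 0.00136), with -0.62 in replicates 1 and 2 and -0.55 in replicates 3 and 4. GRB10 fell by 0.58 (limma adjusted p = 0.0402), with -0.82 and -0.33 in the sets of replicates. The kinase gene ABL2 rose by 0.30 and PIK3R1, a regulatory subunit of PI3-kinase, rose by 0.30 (limma adjusted p = 0.0439 and 0.0424). The Src family genes SRC, FYN and YES1 gave -0.24, -0.22 and -0.15, and none passed. With the replicate number as a block, ABL2 and PIK3R1 no longer passed (limma adjusted p = 0.0870 and 0.0918).

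Among regulators and effectors through which Eph receptors act on the cytoskeleton, 1 of the 18 genes that met the filter was called. The share over all tested genes was 13.1%. The called gene was SIPA1L1, a GTPase-activating protein with a difference of -0.30 (limma adjusted p = 0.0317, and 0.0518 with the replicate block). RAC1 gave -0.32 and ROCK1 gave -0.21 (limma adjusted p = 0.0644 and 0.0792). The exchange factors VAV2 and TIAM1 gave 0.22 and 0.16 and did not pass. NGEF, the exchange factor ephexin that binds EPHA4, fell under the filter: it was 1.48, 1.43, 0.60 and 1.21 in the controls and -0.12, 0.35, 0.03 and -0.14 in the knockout libraries. The groups did not overlap, and the difference of -1.15 was called in the limma fit without the filter (adjusted p = 0.0205).

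Of phosphatases and endocytic proteins that limit Eph signals, 2 of the 7 genes that met the filter were called, both higher. Over all tested genes 13.1% were called, 7.02% higher. CAV1, which encodes the membrane scaffold caveolin, was 5.43, 5.35, 5.99 and 5.67 in the controls and 6.12, 6.14, 6.35 and 6.26 in the knockout libraries. All knockout values lay above the highest control, and the difference was 0.60 ± 0.14 (SE; limma adjusted p = 0.0268). PTPRF, a receptor tyrosine phosphatase, rose by 0.50 (limma adjusted p = 0.00864), with 0.67 in replicates 1 and 2 and 0.34 in replicates 3 and 4. PTPN11, the phosphatase SHP2, gave -0.10 and did not pass. ANKS1A, an adaptor of Eph receptors that fell under the filter, went the other way: it was 0.72 to 0.90 in the controls and 0.44 to 0.57 in the knockout libraries. Its difference of -0.33 was called in the limma fit without the filter (adjusted p = 0.0321).

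Of proteases that can cut Eph receptors or ephrins, with subunits of the gamma-secretase complex, 2 of 10 tested genes were called, both lower. Over all tested genes 13.1% were called, 6.10% lower. MMP9, a secreted gelatinase, was 4.38, 4.43, 3.85 and 4.26 in the controls and 2.53, 2.50, 0.98 and 1.06 in the knockout libraries, a difference of -2.46 ± 0.38 (SE; limma adjusted p = 0.00696). MMP14, a membrane-bound metalloproteinase known to cleave EPHA2, was 6.10, 6.08, 6.63 and 6.23 in the controls and 4.52, 4.69, 5.53 and 5.48 in the knockout libraries. For both genes every knockout library lay below every control. The difference of MMP14 was -1.20 ± 0.25 (SE; limma adjusted p = 0.0180). ADAM10, the main sheddase of ephrins, gave 0.17 (limma adjusted p = 0.429). Of gamma-secretase genes, PSEN2 gave -0.30, NCSTN -0.24, APH1A -0.22 and PSENEN -0.0066, and none of these 4 passed. MMP2 gave 0.05 over 4 replicates, with -0.94 in replicates 1 and 2 and 1.04 in replicates 3 and 4.

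Of reverse signalling partners of class B ephrins, none of 9 tested genes was called, beside 13.1% of all tested genes. The 9 included SDCBP, a scaffold that binds the tail of these ephrins, at -0.14, PARD3 at -0.20 (limma adjusted p = 0.0782), STAT3 at -0.08 and RGS3 at -0.06.

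**Figure D4:**
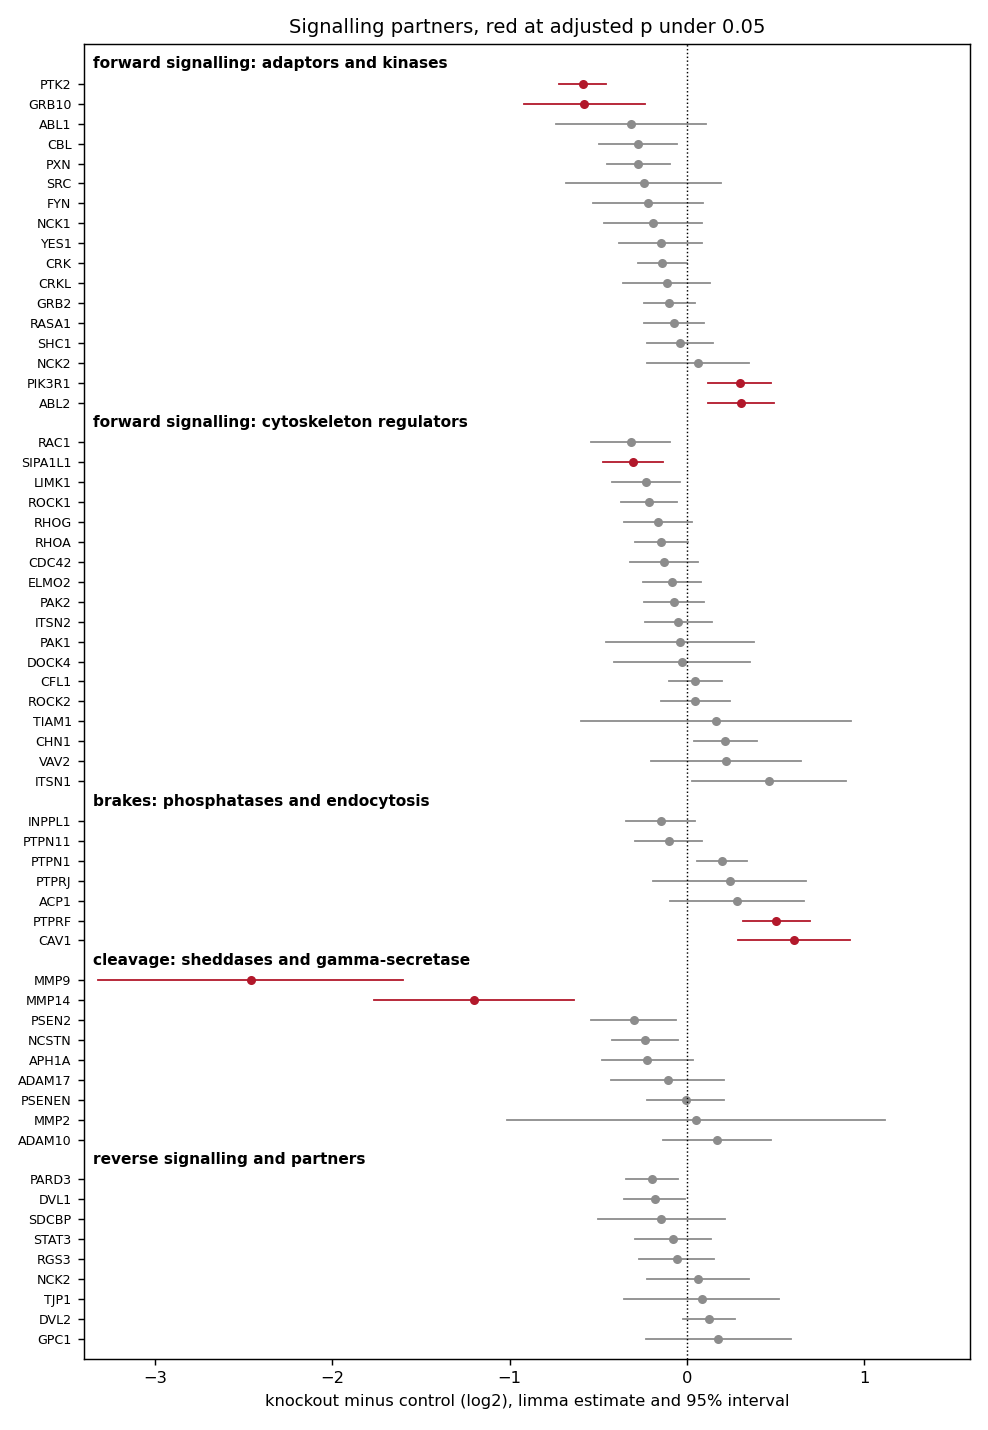
Knockout minus control (log2, horizontal axis) for 59 of the 60 tested signalling partners by role, with limma estimates (points) and 95% intervals (lines); red marks an adjusted p-value under 0.05, and NCK2 stands in 2 roles. MMP9 and MMP14 lie farthest to the left, PTPRF and CAV1 are the highest of the called genes, and no gene of the reverse signalling group is red.

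Of the 9 called partners, PTK2 and MMP9 kept their calls with averaged knockout pairs (limma adjusted p = 0.0315 and 0.0387) and without any single library. PTPRF kept its call without any single library and lost it with averaged pairs (limma adjusted p = 0.0723). MMP14 lost its call without control library 1 or 4 (limma adjusted p = 0.0504 and 0.0602). CAV1 lost it without control library 1, 2 or 4 or knockout library 3 or 4 (limma adjusted p = 0.0531 to 0.0855). GRB10 lost it without any 1 of the controls or without knockout library 1 or 2, ABL2 without any library but knockout library 4, PIK3R1 without any library but control library 3 and knockout library 3, and SIPA1L1 without any library but control library 3 and knockout library 4.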

How the data were processed

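RNA of 8 samples was sequenced after TRIzol extraction and a stranded total-RNA library kit, per the labels' protocols. The submitters' processing notes list bcl2fastq, Partek 7.0 and GRCh38; the aligner, counting and unit before the logarithm are not given in the sources used here. The deposited values are log2 numbers per gene symbol (base inferred from their range, -10.5 to 12.1), and all libraries share 1 distribution, so they had been quantile normalized. Blank cells were treated as missing. Groups came from titles and columns were matched by the description labels. Nothing names separate cultures beyond the words biological replicates. Depth is unknown, and the spread between libraries stands for the error.

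The difference, knockout minus control, was estimated by limma 3.58.1 (R 4.3.3; lmFit, eBayes) on the 9016 genes that had no blank and whose mean reached 1, with Benjamini-Hochberg adjustment over all of them and a threshold of 0.05. Members under the filter had exact two-sided permutation tests. The fit was tested on simulated data with independent libraries. The simulated libraries lacked the close knockout pairs, so that test does not cover the dependence between libraries. Deviations from group means correlated at 0.20 to 0.29 in every same-numbered pair, over the limit of 0.1 set for a pairing. They correlated at 0.11 to 0.31 for the other number of the same set (1 and 2, or 3 and 4). The main fit nevertheless had no term for replicate number or set, and its p-values take the libraries as unpaired. Both terms were run as alternatives. With the term for the sets EPHA2 passed as well (limma adjusted p = 0.0192), where 25.2% of all tested genes were called.

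The members, lists and rules were chosen with earlier results of these data known. All members were named, with the family genes that met the filter, up to 4 called partners without overlap per direction, by size of difference, and the 3 genes most alike each called member. Other partners named were chosen after their values were seen. Promoters came from RefSeq (GRCh38.p14) and exon overlaps from GENCODE 29. The value of 1 partner is not reported here.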

Additional observations from a re-analysis of the deposited data

Results flagged for a closer look

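In the control libraries, 1 EFNA5 value stood apart from the other 3. Control library 3 was at 0.72 and the others at 1.09 to 1.11, so the gap to its nearest neighbour was 0.944 of the group's range, above Dixon's 95% critical value for 4 samples. Without control library 3 the difference of EFNA5 was -0.39 (p = 0.229 by exact permutation). It was the 1 group flagged of 37 examined, a rule by which chance flags about 1 group in 20.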

How the results depend on the processing

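All alternatives were listed with earlier results of these data known. EFNB1 kept its direction and call in 20 of 20 alternatives (-0.86 to -0.70, limma adjusted p = 1.533e-04 to 0.0270). EPHB2 kept its direction in 20 of 20 and its call in 14, EPHA2 its direction in 20 of 20. Averaged knockout pairs, the replicate block, the 1-2 against 3-4 term, the variance trend and changes of filter or threshold leave the estimate unchanged. Direction could not reverse in those alternatives. With the replicate block 2 members and 6 partners were called (924 of all genes); it changed no member's call, and no partner's other than those of ABL2, PIK3R1 and SIPA1L1. Called genes among all tested, members and partners numbered 1183, 2 and 9 in the main result. They were 1157, 2 and 7 without the filter, where GRB10 (limma adjusted p = 0.0646), ABL2 (0.0692), PIK3R1 (0.0675) and SIPA1L1 (0.0531) lost their calls and NGEF and ANKS1A gained one. They were 108, 1 and 2 with knockout pairs averaged, 5380, 6 and 35 in replicates 1 and 2 alone, 2987, 4 and 23 in replicates 3 and 4 alone, and 272, 1 and 3 at an adjusted p-value under 0.01. A term for replicates 1 and 2 against 3 and 4 gave 2274, 3 and 16, and a filter at a mean of 3 gave 729, 3 and 6. Leaving out 1 library gave 391 to 1353, 1 to 3 and 3 to 12. Of the other family genes EFNB3 was called in replicates 1 and 2 alone (1 gene) and none when a library was left out (0 to 0). Direction reversed in replicates 3 and 4 alone for EPHA4 (0.55), EPHB4 (0.081), EFNB2 (0.11) and EFNA5 (0.18). Leaving out 1 library gave -0.68 to 0.012 for EPHA4 and -0.11 to 0.0088 for EFNB2. The cause was not tested. A renewed quantile normalization, the variance trend, the 1-2 against 3-4 term, the filter at 3 and the stricter threshold were not run for EPHB3, EFNA1 and EFNA5. Without counts, no detection limit can be given for the low values.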
